A study of Mus musculus with 6 samples.

Results

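The transcripts of 9 neutrophil and granule genes, *S100a8*, *S100a9*, *Csf3r*, *Cxcr2*, *Ly6g*, *Lcn2*, *Retnlg*, *Itgam* and *Mpo*, were examined in primary ovarian tumors grown in wild-type (WT) mice and in *Tgm2* knockouts. The genes were taken by their symbols, and all 9 were found among the 20076 genes of the deposited table. The tumors came from C57BL/6 WT mice and from mice lacking *Tgm2*, the gene for transglutaminase 2, in every host tissue; both were bred in-house and were 6 to 10 weeks old when used. Mice of both genotypes received intrabursal injections, on both sides, of the same ID8 *Trp53*-/- *Brca1*-/- line, mouse ovarian cancer cells from which both tumor suppressors were deleted by CRISPR-Cas9, and tumors were taken after 6 weeks. There were 3 tumors in each group, whose values are always given in the order of the replicate numbers 1 to 3, and the labels call them mice with replicate numbers without saying more about litters or batches. The injected cancer cells carried *Tgm2*. Its transcripts were at 14978, 12155 and 13180 normalized counts across the WT tumors against 5853, 6071 and 8157 across the knockouts, with no overlap. The log2 fold change was -1.02 (unadjusted p = 0.0015, adjusted p = 0.391, limma), and the two-sided exact permutation test gave p = 0.1, the smallest possible with groups of 3. The source of the *Tgm2* transcripts in the knockout tumors was not tested. A pair of libraries stood apart in transcripts of other cells, WT tumor 3 with 8047 normalized counts of the epithelial gene *Epcam* (90.5 to 1307 in the others) and WT tumor 2 with 26293 of the beta globin gene *Hbb-bs* (645 to 6254 in the others).

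Neutrophils are short-lived white blood cells that leave the bone marrow under the growth factor G-CSF and follow chemokines into inflamed tissue. They carry antimicrobial proteins in granules that are filled in a fixed order during maturation: primary granules with myeloperoxidase and serine proteases come first, and secondary granules with lactoferrin, lipocalin and cathelicidin follow. In tumors, cells of this lineage that dampen T cells are called granulocytic myeloid-derived suppressor cells, and in mice they are commonly recognized by CD11b and Ly6G on the surface. Several of the 9 genes are also used by other cells, among them *Itgam* by macrophages and *Lcn2* by epithelium and fat.

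None of the 9 genes passed the test between *Tgm2* knockout and WT tumors after adjustment. All 9 passed the filter on low values, and 0 of 9 passed an adjusted p of 0.05 with an absolute log2 fold change of 1 (limma), limits that 0.102% of the 19667 genes tested passed as higher in knockout tumors and 0% as lower. At an unadjusted p under 0.05, 1 of 9 was higher, *Csf3r*, against 3.40% of all genes tested, and 0 of 9 were lower, against 2.38%. *Csf3r* was also the one gene of the 9 whose groups did not overlap, all knockout tumors lying higher than all WT tumors, as was so for 5.18% of all genes; 0 of 9 lay below in every tumor, against 5.33% of all genes. The log2 fold change (knockout minus WT, of normalized counts + 1) was above 0 for 2 genes and below 0 for 7, with a median of -0.33 beside -0.03 over all genes tested. Leaving out 1 tumor gave medians of the 9 genes from -0.65 to -0.02. With the mean of general leukocyte or of white adipocyte genes as a covariate the median was 0.0233 or 0.0453 (0.00404 and 0.0893 over all genes tested). The single genes were spread widely around these medians. They ranged from -2.15 (*Retnlg*) to 1.91 (*Ly6g*) with the leukocyte covariate and from -5.53 (*S100a9*) to 1.92 (*Ly6g*) with the adipocyte covariate. The adipocyte covariate itself differs between the groups. Tumors of 1 genotype differed widely in *Lcn2*, *Ly6g*, *S100a8*, *S100a9* and *Retnlg*, and less so in *Itgam* and *Cxcr2*. In bulk RNA, fewer cells of a type and less RNA per cell cannot be told apart.

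**Figure D1:**
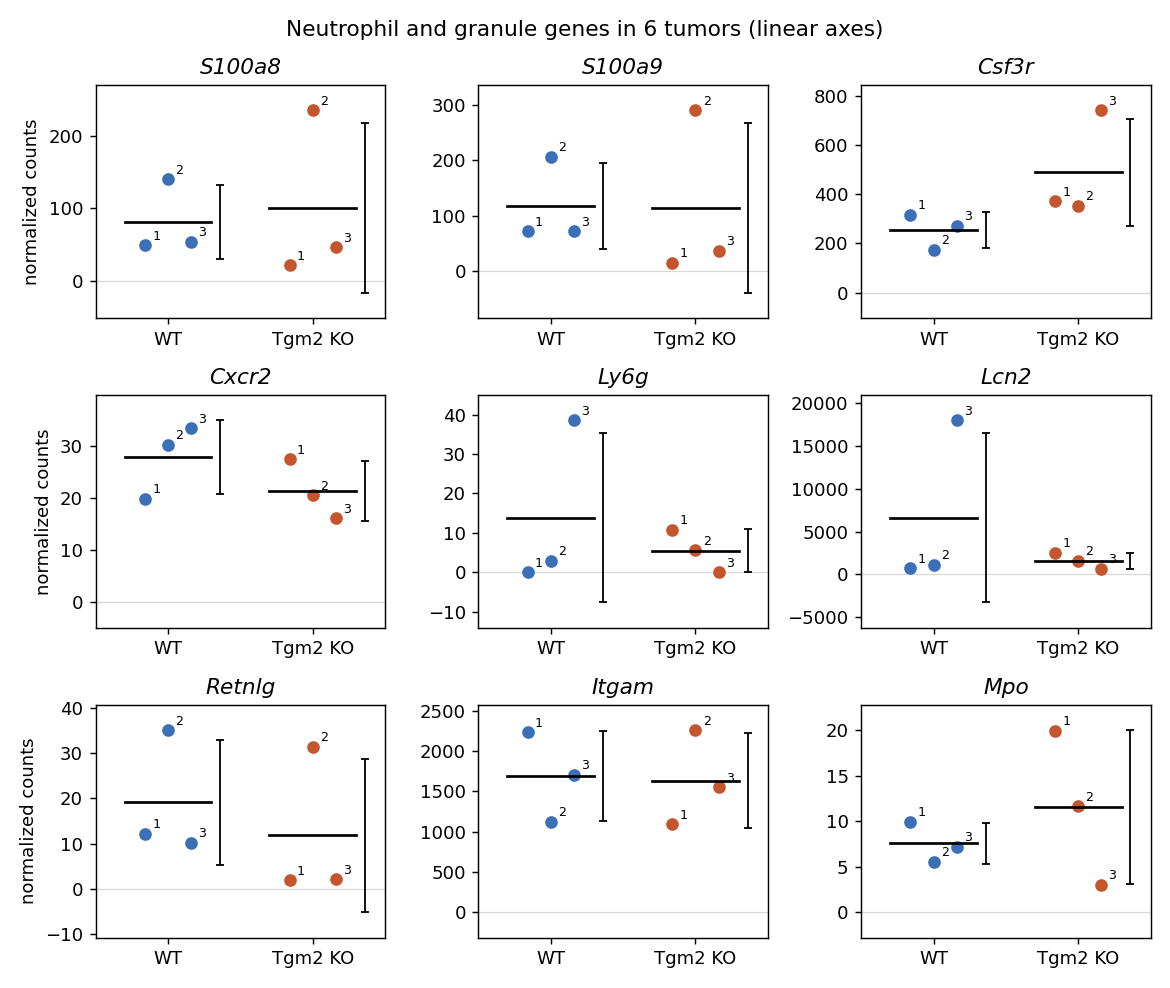
Normalized counts (linear vertical axes, a scale for each gene) of the 9 genes in each of the 6 tumors; numbers beside the points are the replicate numbers, horizontal lines the group means and vertical bars the SD of 3 tumors. *S100a8*, *S100a9* and *Retnlg* were highest in WT tumor 2 and knockout tumor 2, *Ly6g* and *Lcn2* in WT tumor 3, and *Csf3r* in knockout tumor 3.

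*S100a8* and *S100a9* encode the subunits of calprotectin, an abundant cytosolic protein of neutrophils, and *Retnlg* encodes a resistin-like protein made largely by mature mouse neutrophils. All 3 genes followed 1 pattern over the tumors. The stretches just upstream of their transcripts are shown so that these co-varying genes can be set beside *Ly6g*, a neutrophil surface gene with another pattern. They were taken from RefSeq promoter windows on GRCm38.p6 (250 bases before to 50 after each start, without bases inside the annotated gene) and are written 5′ to 3′ on the strand of the gene, with capitals for matches to the C/EBP-like motif TTGCNNAA or the PU.1-like motif GAGGAAG on either strand.
*S100a8* (chr3:90668821-90668977, plus strand): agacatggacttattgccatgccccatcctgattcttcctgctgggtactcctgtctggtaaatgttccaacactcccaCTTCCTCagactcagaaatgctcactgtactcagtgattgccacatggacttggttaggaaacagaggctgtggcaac
*S100a9* (chr3:90695722-90695971, minus strand): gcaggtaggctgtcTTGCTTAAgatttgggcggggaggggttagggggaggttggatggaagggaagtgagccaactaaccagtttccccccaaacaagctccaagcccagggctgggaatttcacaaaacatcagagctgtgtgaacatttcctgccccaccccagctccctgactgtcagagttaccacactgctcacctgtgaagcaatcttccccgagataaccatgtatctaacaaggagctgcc
*Retnlg* (chr16:48872358-48872607, plus strand): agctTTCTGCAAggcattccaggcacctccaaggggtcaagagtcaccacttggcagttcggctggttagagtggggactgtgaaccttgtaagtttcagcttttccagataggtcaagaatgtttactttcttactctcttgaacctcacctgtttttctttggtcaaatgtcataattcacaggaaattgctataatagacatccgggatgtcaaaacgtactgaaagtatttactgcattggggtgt
*Ly6g* (chr15:75155011-75155239, plus strand): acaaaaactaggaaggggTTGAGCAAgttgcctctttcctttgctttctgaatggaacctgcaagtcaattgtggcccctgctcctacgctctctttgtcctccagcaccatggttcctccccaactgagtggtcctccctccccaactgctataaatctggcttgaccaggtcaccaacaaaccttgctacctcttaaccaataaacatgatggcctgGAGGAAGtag
The stretch of *S100a8* held 1 match to GAGGAAG, as its reverse complement. The stretches of *S100a9* and *Retnlg* each held 1 match to TTGCNNAA, and that of *Ly6g* held 1 match to each motif. All 9 genes had a window in the RefSeq table: TTGCNNAA was found in 4 of them (*S100a9*, *Ly6g*, *Lcn2* and *Retnlg*), beside 12.2% of all genes with a window, and GAGGAAG in 6 (*S100a8*, *Csf3r*, *Ly6g*, *Lcn2*, *Itgam* and *Mpo*), beside 15.4%. A match describes letters, not binding, and neither motif was found in all 3 genes that varied together.

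*S100a8* (GRCm38 chromosome 3, 90668978 to 90670035, plus strand) was at 49.6, 139.9 and 54.1 normalized counts across the WT tumors against 21.6, 234.5 and 46.3 across the knockouts. Tumor 2 was the highest in both groups, the knockout group held both the lowest and the highest tumor, and the groups overlapped. The log2 fold change was -0.21 (SE 0.88, adjusted p = 0.979, limma), and it was 0.26 without WT tumor 2 and -1.16 without knockout tumor 2. Across the libraries 1 read was worth 0.942 to 1.09 normalized counts.

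*S100a9* (chromosome 3, 90692632 to 90695721, minus strand) was at 71.9, 206.8 and 71.8 normalized counts across the WT tumors against 14.9, 290.6 and 37.0 across the knockouts. The same pair of tumors stood out, and knockout tumors 1 and 3 lay below all WT tumors while knockout tumor 2 lay above them. Its log2 fold change was -0.88 (SE 1.02, adjusted p = 0.917, limma). Without knockout tumor 2 it was -2.07 (unadjusted p = 0.0272, adjusted p = 0.904, limma), without knockout tumor 1 it was 0.03, and without WT tumor 2 it was -0.38.

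*Retnlg* (chromosome 16, 48872621 to 48874496, plus strand) was at 12.2, 35.1 and 10.2 normalized counts across the WT tumors against 1.88, 31.4 and 2.19 across the knockouts. Its values in knockout tumors 1 and 3 were worth about 2 reads each. It had the log2 fold change farthest from 0 of the 9 genes, -1.39 (SE 1.06, adjusted p = 0.896, limma), and knockout tumor 2 lay inside the WT range. Without knockout tumor 2 the log2 fold change was -2.53 (unadjusted p = 0.0225, adjusted p = 0.904, limma), and without WT tumor 2 it was -0.86. With knockout tumor 2 left out, *S100a8*, *S100a9* and *Retnlg* were lower in both other knockout tumors than in every WT tumor. The same was so for 11.5% of all genes, and 10.5% lay above.

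Over the 6 tumors Pearson's r on the log2 scale was 0.97 between *S100a8* and *S100a9*, 0.89 between *S100a8* and *Retnlg* and 0.96 between *S100a9* and *Retnlg*. These are descriptions over 6 tumors whose genes share library depth and tissue composition, and leaving out 1 tumor gave 0.96 to 0.98, 0.82 to 0.94 and 0.95 to 0.99 over 5 tumors. Genes of secondary and tertiary granules differed in how they followed *S100a8*: over the 14 in the table its r ranged from -0.30 to 0.88 with a median of 0.13, and 5 lay above 0.5. These were *Camp*, the cathelicidin gene (0.88), *Ngp* (0.76), *Hp* (0.66), *Chil1* (0.64) and *Olfm4* (0.59), while *Ltf* had 0.19, *Lcn2* -0.14, *Mmp9* -0.15 and *Mmp25* -0.30. *Camp* was at 64.9 normalized counts in knockout tumor 2 and between 0 and 6.61 in the others. Without that tumor the r of *S100a8* was 0.72 with *Camp* and 0.41 with *Ngp*. *Ngp* was at 117.8 in knockout tumor 2, at 11.4 in WT tumor 2 and at 6.49 or less in the others. *Il6*, a cytokine gene, had an r of 0.89 with *S100a8*, and *Ccr1*, a chemokine receptor gene of myeloid cells, had 0.85.

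Red cell and fat cell transcripts were also unevenly spread over these tumors. The summed normalized counts of 8 red cell genes were 2735, 51527 and 8552 across the WT tumors against 7802, 12932 and 2490 across the knockouts, so that tumor 2 was the highest of each group, as for *S100a8*. *Hbb-bs*, a beta globin gene and the most abundant of them, reached 26293 in WT tumor 2 and 6254 in knockout tumor 2, while *Slc4a1*, the anion exchanger of red cells, was listed at 0 in at least 1 tumor. *Hbb-bs* had an r of 0.57 with *S100a8*, and *Alas2*, the haem synthesis gene of red cell precursors, 0.26. The 8 white adipocyte genes together, of which *Cfd* was the most abundant, came to 11932, 25369 and 11525 across the WT tumors against 20230, 115506 and 51318 across the knockouts, again highest in tumor 2 of each group. *Adipoq*, the adiponectin gene, had an r of 0.54 with *S100a8* over the 6 tumors and of 0.93 for deviations from the group means. The part of blood and of fat in the levels of *S100a8*, *S100a9* and *Retnlg* was not tested, beyond the adipocyte covariate under which their log2 fold changes were -4.04, -5.53 and -5.43 (adjusted p = 0.433 for each, limma).

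**Figure D2:**
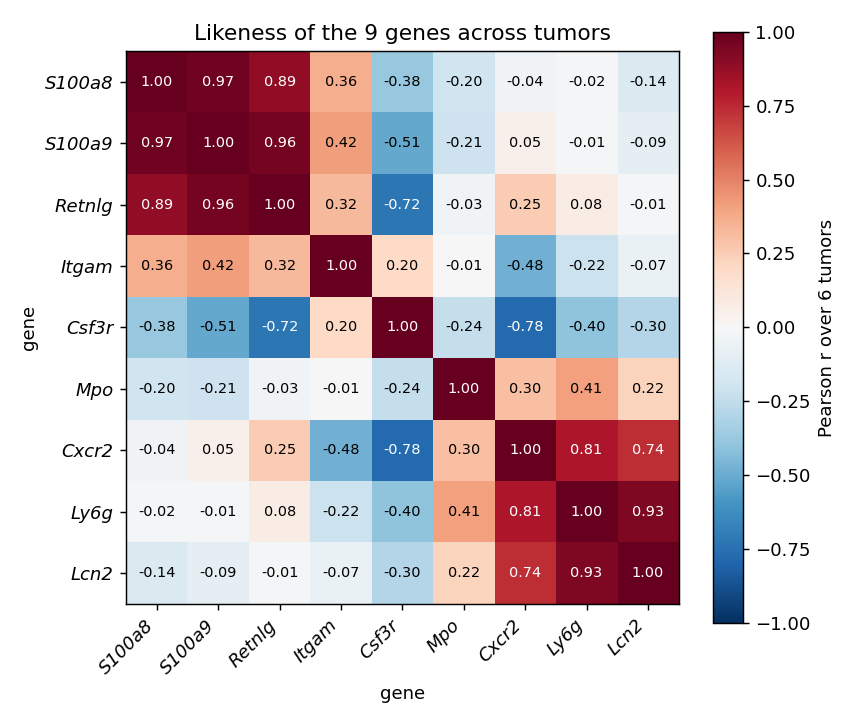
Pearson's r over the 6 tumors between each pair of the 9 genes, on log2(normalized counts + 1), from -1 (blue) to 1 (red). *S100a8*, *S100a9* and *Retnlg* form 1 block and *Cxcr2*, *Ly6g* and *Lcn2* another, while *Csf3r*, *Itgam* and *Mpo* stand apart.

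By the closest pattern over the tumors, the 5 genes most like *S100a8* were *Tmem243* (r = 0.99), *Atf3*, a stress-induced transcription factor gene (0.99), *Mup11*, a major urinary protein gene (0.99), *Prdx5*, a peroxiredoxin gene (0.99), and *Glod5* (0.99), among 16736 genes with a mean of at least 10 normalized counts. With 6 tumors such values are common: 297 of those genes had an r above 0.9 with *S100a8*. For the mean z-score of *Csf3r*, *Cxcr2*, *S100a8*, *S100a9* and *Retnlg* together, the closest were *Tor2a*, *Rnf13*, *Gm7331*, *Sem1* and *Pigyl*, with r between 0.989 and 0.997, and 370 of 16732 genes lay above 0.9. None of these 10 genes is a neutrophil gene of the lists used here.

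*Csf3r* and *Cxcr2* encode the receptors that govern neutrophil supply, the first for G-CSF and the second for the CXCL chemokines that draw neutrophils out of marrow and blood. They were inversely related over the tumors (r = -0.78, and -0.53 without knockout tumor 3). *Csf3r* (chromosome 4, 126024550 to 126044440, plus strand) was at 316.9, 175.2 and 272.4 normalized counts across the WT tumors against 373.6, 354.7 and 743.0 across the knockouts. Every knockout tumor lay above every WT tumor, and knockout tumor 3 lay far above the rest. The log2 fold change was 0.90 (SE 0.39, 95% interval 0.01 to 1.78, unadjusted p = 0.0475, adjusted p = 0.859, limma), and the two-sided exact permutation test gave p = 0.1, the smallest possible with groups of 3. The fold change on the log2 scale was 0.56 without knockout tumor 3 (unadjusted p = 0.203, limma) and 0.70 with the mean of general leukocyte genes as a covariate (unadjusted p = 0.175, limma).

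*Cxcr2* (chromosome 1, 74153989 to 74161246, plus strand) was at 19.9, 30.2 and 33.4 normalized counts across the WT tumors against 27.5, 20.6 and 16.1 across the knockouts. The groups overlapped, since WT tumor 1 lay below knockout tumors 1 and 2, and the log2 fold change was -0.36 (adjusted p = 0.942, limma). The tumor with the most *Csf3r*, knockout tumor 3, held the least *Cxcr2*.

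The genes that followed *Csf3r* were not all of the neutrophil lineage. *Mmp25*, a membrane-bound protease gene of leukocytes, had an r of 0.97 with *Csf3r* (0.92 without knockout tumor 3), with 126, 62.3 and 72.8 normalized counts across the WT tumors against 153, 147 and 339 across the knockouts. *Cd4* and *Cd3e*, genes of T cells, had r of 0.94 and 0.93, *Flt3*, a dendritic cell and progenitor receptor gene, 0.94, and *Itgal*, an integrin gene of lymphocytes and other leukocytes, 0.92; without knockout tumor 3 these 4 lay between 0.82 and 0.90. Of 16736 genes with a mean of at least 10 normalized counts, 239 had an r above 0.9 with *Csf3r*. *Flt3* was at 104, 64.5 and 80.7 across the WT tumors against 140, 211 and 366 across the knockouts. The summed counts of 8 general leukocyte genes were 31176, 22720 and 17061 across the WT tumors against 22176, 40048 and 43456 across the knockouts, with *Laptm5* the most abundant and none at 0. All 8 had a log2 fold change above 0 (median 0.53), as did all 16 monocyte and macrophage genes (median 0.55) and all 8 T cell genes (median 0.84). Their part in the level of *Csf3r* was not tested beyond the covariate above.

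Of the 13 chemotactic and growth factor receptor genes in the table, 1 was higher at an unadjusted p under 0.05 (3.40% of all genes tested), *Csf3r* itself, 0 were lower (2.38%), and 7 of 13 had a log2 fold change above 0 (median 0.00). *Csf2rb*, the shared beta chain of the GM-CSF receptor, was at 1483, 787 and 947 across the WT tumors against 983, 1056 and 1562 across the knockouts. Its partner *Csf2ra* had a fold change of -0.42 on the log2 scale (adjusted p = 0.896, limma), and *Tnfrsf1b*, a TNF receptor gene, one of -0.07. *Fpr1*, the receptor for bacterial formyl peptides, was between 6.09 and 43.5 normalized counts in all tumors, with a log2 fold change of 0.00.

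A list of ligands and growth factors that recruit or activate neutrophils held 16 genes of the table, and none passed adjustment. The log2 fold change was below 0 for 14 of 16 (median -0.67, beside -0.03 over all genes tested). At an unadjusted p under 0.05, 2 were lower, beside 2.38% of all genes, and 0 were higher, and 3 lay below all WT tumors in every knockout tumor, beside 5.33%. *Ppbp*, the gene of the platelet chemokine CXCL7, was at 5.66, 23.9 and 7.11 normalized counts across the WT tumors against 2.84, 1.96 and 1.08 across the knockouts. Its log2 fold change was -1.94 (SE 0.78, unadjusted p = 0.0371, adjusted p = 0.821, limma), on a few reads in each knockout tumor.

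*Il1a*, the alarm cytokine interleukin-1 alpha, was at 61.5, 90.6 and 199.7 across the WT tumors against 41.7, 39.2 and 33.4 across the knockouts, with no overlap. Its log2 fold change was -1.43 (SE 0.56, unadjusted p = 0.034, adjusted p = 0.819, limma). *Tnf* was at 61.4, 64.5 and 60.8 across the WT tumors against 30.3, 44.1 and 45.3 across the knockouts, also with no overlap, and its log2 fold change of -0.65 had an adjusted p of 0.896 (limma). For *Cxcl1*, a main ligand of CXCR2, the values were 81.6, 276.6 and 138.8 against 35.6, 120.2 and 60.6, and the groups overlapped (log2 fold change -1.18, adjusted p = 0.889, limma).

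*Csf3*, the gene of G-CSF itself, was at 5.68, 29.2 and 192.0 normalized counts across the WT tumors against 41.7, 57.0 and 0 across the knockouts. It was highest in WT tumor 3 and listed at 0 in knockout tumor 3, the tumor with the most *Csf3r*. *Cxcl15*, a chemokine gene of lung and other mucosal epithelium, was at 9.47, 137.6 and 367.2 against 8.53, 31.4 and 0. The genes with the largest counts of this list were complement *C3*, *Anxa1* and *Cxcl12*, with log2 fold changes of -0.17, -0.41 and 0.03.

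**Figure D3:**
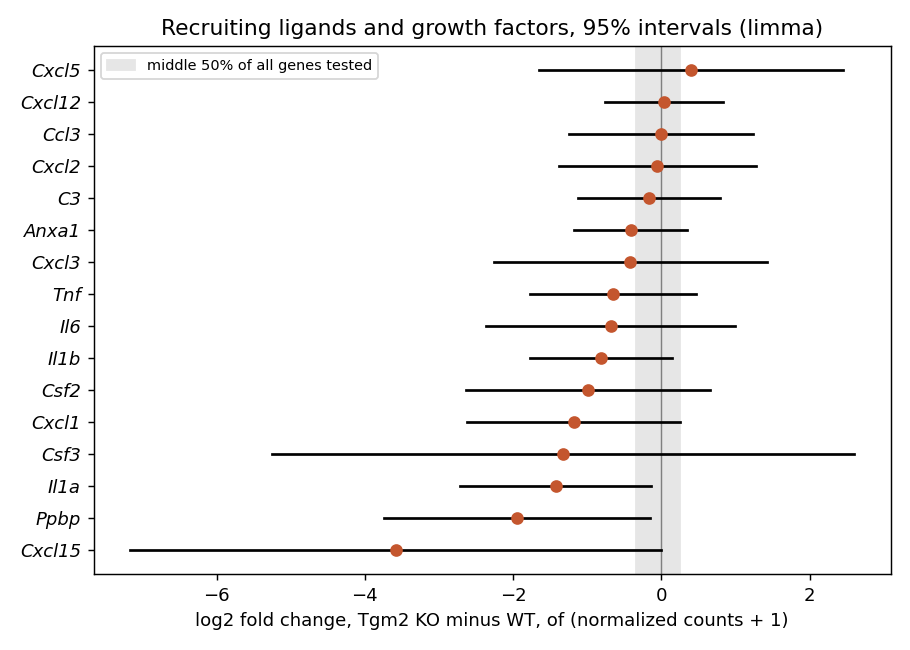
Log2 fold changes (knockout minus WT, of normalized counts + 1) of 16 recruiting ligand and growth factor genes with 95% intervals from limma, 3 tumors a group; the grey band spans the lower to the upper quartile of all genes tested. Of the 16 points 14 lie below 0, and the intervals of *Il1a* and *Ppbp* are the ones that do not reach it.

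*Lcn2* encodes lipocalin 2, an iron-sequestering protein first found in the secondary granules of neutrophils and also made by epithelium. *Lcn2* (chromosome 2, 32384633 to 32388252, minus strand) was at 718, 1119 and 17990 normalized counts across the WT tumors against 2534, 1599 and 694 across the knockouts. WT tumor 3 held more than all other tumors together, and the other values of both groups were interleaved. The log2 fold change was -0.79 (SE 1.09, adjusted p = 0.933, limma), and it was 0.65 without WT tumor 3 (adjusted p = 0.967, limma).

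*Ly6g* encodes the surface protein by which mouse neutrophils are usually gated. *Ly6g* (chromosome 15, 75155240 to 75159126, plus strand) was at 0, 2.95 and 38.6 normalized counts across the WT tumors against 10.8, 5.66 and 0 across the knockouts. It was listed at 0 in 1 tumor of each group and was highest in WT tumor 3, like *Lcn2* (r = 0.93, and 0.98 without that tumor). The log2 fold change was -0.33 (adjusted p = 0.980, limma), and 1.11 without WT tumor 3. *Ly6g* lies in a cluster of related Ly6 genes whose sequences are alike. The share of reads given to each may be uncertain at these low values, which was not tested.

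WT tumor 3 stood apart in other genes of secondary granules and of epithelium. *Ltf*, the lactoferrin gene, was at 227, 3967 and 52176 normalized counts across the WT tumors against 3718, 3910 and 31.6 across the knockouts. *Pglyrp1*, a peptidoglycan-binding protein gene, was at 1542 in WT tumor 3 and between 133 and 171 in the others, and *Itgb2l*, an integrin beta chain gene, was at 80.8 there and at 6.66 or less elsewhere. *Camp* and *Ngp*, of the same granules, did not share the pattern, with 2.04 and 0 normalized counts in WT tumor 3.

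The epithelial gene *Epcam* was at 90.5, 959 and 8047 normalized counts across the WT tumors against 1307, 1063 and 201 across the knockouts, and its r was 0.91 with *Lcn2* and 0.97 with *Ly6g* (0.87 and 0.94 without WT tumor 3). *Pigr*, the receptor that carries antibodies across mucosal epithelium, was at 9321 in WT tumor 3 and between 10.6 and 332 in the other tumors (r = 0.93 with *Lcn2* and 0.94 with *Ly6g*, or 0.79 and 0.88 without WT tumor 3). *Pax8*, a transcription factor gene of oviduct and kidney epithelium, was at 1905 in that tumor and between 40.9 and 437 in the others. The 10 oviduct and mucosal epithelium genes together came to 1778, 11608 and 44692 across the WT tumors against 45399, 67536 and 7252 across the knockouts. Knockout tumors 1 and 2 held the larger sums through *Ovgp1*, the oviductal glycoprotein gene and the most abundant of the list, at 37108 and 55944, and *Krt5*, a keratin gene of stratified epithelium, was listed at 0 in at least 1 tumor. Over the 10 genes the r with *Lcn2* ranged from -0.35 to 0.93 with a median of 0.69, *Ovgp1* being at 0.52, *Foxj1*, the factor gene of ciliated cells, at 0.18 and *Slpi*, an antiprotease gene, at -0.35. The r with *Ly6g* ranged from -0.22 to 0.97 with a median of 0.83, with *Foxj1* at 0.51. Such values are common with 6 tumors. Among genes with a mean of at least 10 normalized counts, 613 of 16736 had an r above 0.9 with *Lcn2*. For *Ly6g* these were 460 of 16737. The part of epithelium in the levels of *Lcn2* and *Ly6g* was not tested.

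**Figure D4:**
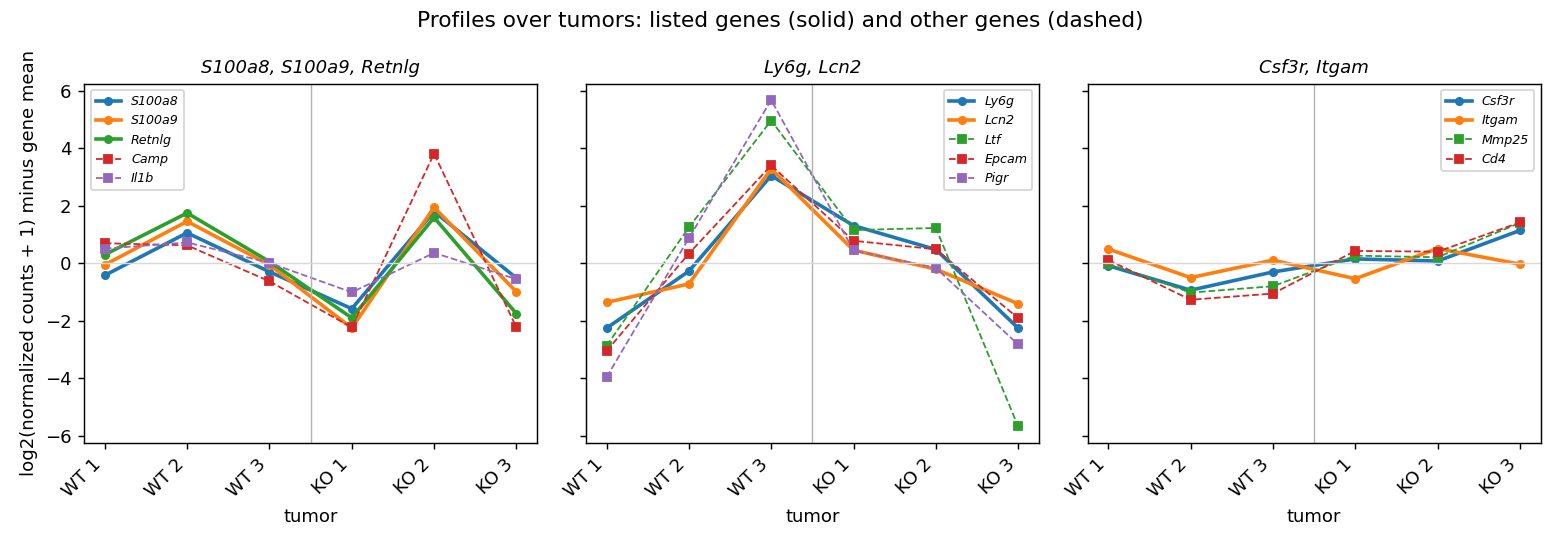
Log2(normalized counts + 1) minus the mean of each gene over the 6 tumors, by tumor, for genes of the 9 (solid lines) and other genes described beside them (dashed lines); the grey line parts WT from knockout tumors. *Lcn2* and *Ly6g* peak with *Ltf*, *Epcam* and *Pigr* in WT tumor 3, *S100a8*, *S100a9* and *Retnlg* peak in tumor 2 of each group, and *Csf3r* peaks with *Mmp25* and *Cd4* in knockout tumor 3.

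*Itgam* encodes CD11b, the alpha chain that pairs with the beta chain of *Itgb2* on neutrophils, monocytes and macrophages. *Itgam* (chromosome 7, 128062640 to 128118491, plus strand) was at 2234, 1122 and 1709 normalized counts across the WT tumors against 1092, 2261 and 1551 across the knockouts. Its highest tumor was 2.07 times its lowest, a ratio that only *Cxcr2* matched among the 9 genes, the groups covered nearly the same range, and the log2 fold change was -0.05 (SE 0.34, adjusted p = 0.986, limma). Its r over the 16 monocyte and macrophage genes had a median of 0.56, with 0.67 for *Adgre1*, the F4/80 gene, and 0.74 for *Cd68*. Over the 25 mature neutrophil genes the median was 0.35, with *Cd33* (0.85) and *Clec4d* (0.79) at the top and *Ly6g* (-0.22) among the lowest. With its partner gene *Itgb2* the r was 0.43.

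*Itgb2* was at 2771, 1506 and 857 normalized counts across the WT tumors against 1588, 3172 and 3712 across the knockouts (log2 fold change 0.79, adjusted p = 0.891, limma). Among 9 integrin chain and partner genes, 2 were higher and 1 lower at an unadjusted p under 0.05, where all genes tested gave 3.40% and 2.38%. *Itgal*, the alpha chain of LFA-1, was at 762, 366 and 334 against 904, 981 and 2013 (log2 fold change 1.42, SE 0.41, adjusted p = 0.649, limma), with no overlap, and *Selplg*, the P-selectin ligand gene, had a log2 fold change of 0.93. *Icam1*, the endothelial and epithelial ligand of these integrins, was at 6393, 6425 and 4489 against 2962, 3904 and 3920, with every knockout tumor below every WT tumor (log2 fold change -0.67, adjusted p = 0.736, limma). *Itgax*, the CD11c gene of dendritic cells and macrophages, was at 0.53 on the same log2 scale (adjusted p = 0.891, limma).

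*Mpo* encodes myeloperoxidase, which turns hydrogen peroxide into hypochlorous acid and is transcribed in marrow promyelocytes rather than in mature neutrophils. *Mpo* (chromosome 11, 87793581 to 87804413, plus strand) was at 9.96, 5.54 and 7.19 normalized counts across the WT tumors against 19.9, 11.7 and 3.01 across the knockouts. The knockout group held both the highest and the lowest tumor, on no more than about 20 reads, and the log2 fold change was 0.29 (adjusted p = 0.967, limma). *Elane*, the elastase gene of the same granules, was at 0.95, 4.17 and 0 against 17.1, 4.92 and 0. *Ctsg*, the cathepsin G gene, was listed at 0 in each WT tumor, and the knockouts gave 8.62, 3.60 and 1.80 (unadjusted p = 0.0157, adjusted p = 0.736, limma), and it was the one of 8 primary granule genes higher at an unadjusted p under 0.05 (3.40% of all genes tested), with 0 lower (2.38%). *Prtn3*, proteinase 3, was between 25.3 and 63.2 in all tumors, and *Cd63* and *Srgn*, granule genes that many cell types share, had log2 fold changes of -0.35 and 0.18.

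**Figure D5:**
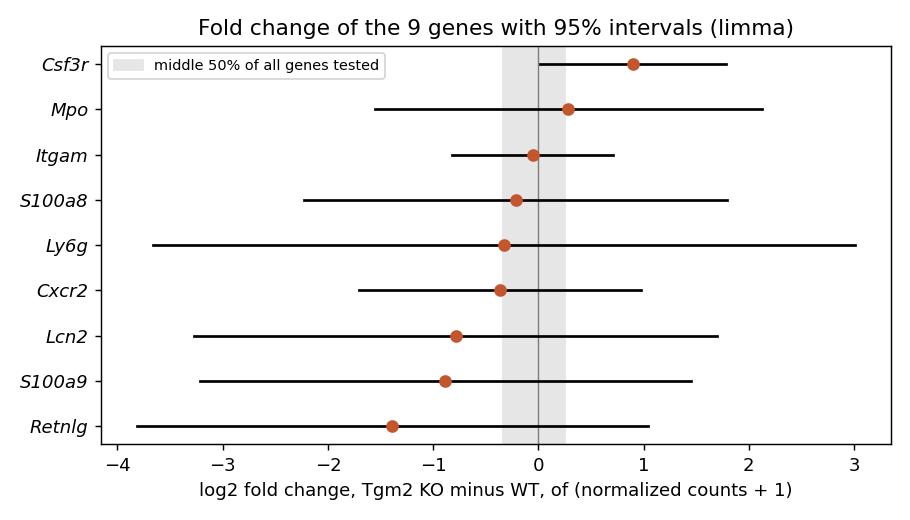
Log2 fold changes (knockout minus WT, of normalized counts + 1) of the 9 genes with 95% intervals from limma, 3 tumors a group; the grey band spans the lower to the upper quartile of all genes tested. The interval of *Csf3r* alone stays above 0 (0.01 to 1.78), and that of *Itgam* is the narrowest.

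Per kilobase of exon, *Lcn2* had the highest mean level of the 9 genes over the 6 tumors, 1566 normalized counts per kb (508 without WT tumor 3), followed by *Itgam* at 331, *S100a9* at 221, *S100a8* at 131 and *Csf3r* at 103. *Retnlg* (26.1 per kb), *Ly6g* (10.3), *Cxcr2* (8.08) and *Mpo* (2.79) were lower. The ranges over the tumors of neighbours in this order overlapped in every case, so their order was not fixed beyond the spread. The length used was that of all annotated exons of a gene merged, which can place genes with many transcripts too low. By the median over tumors *Lcn2* was at 518 per kb, and *Csf3r* (93.0) stood above *S100a8* (74.7) and *Cxcr2* (7.89) above *Ly6g* (4.57), the reverse of their order by mean. On the same scale *Itgam* ranged from 217 to 450 per kb, above the whole range of *Csf3r* (48.6 to 206), and *Csf3r* lay wholly above *Cxcr2* (5.29 to 10.97). The macrophage genes *Csf1r* and *Adgre1* averaged 1124 and 753 per kb, and *Krt8*, an epithelial keratin gene, 7701. *Ly6g*, *Retnlg* and *Cxcr2*, which mark neutrophils more narrowly than the others, did not exceed 38.6 normalized counts in any tumor, so each rested on few reads.

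The wider neutrophil and granule lists were described in the same way. Besides the 9 genes they named 165 genes, of which 150 were in the table and all 150 were tested; 0 passed the limits, 20 (13.3%) were higher at an unadjusted p under 0.05 and 7 (4.67%) were lower, beside the 3.40% and 2.38% of all genes. With the mean of white adipocyte genes as a covariate the balance turned over, to 2 higher and 25 lower (5.06% and 5.84% of all genes tested under it), and with general leukocyte genes 9 were higher and 6 lower (3.73% and 1.89%). Their median log2 fold change was 0.04, and the lowest adjusted p was 0.212, for *Ly6c2* (limma). The 20 higher genes include *Retn*, *Rbp4*, *Orm1*, *Hp*, *G0s2*, *Cd36* and *Cebpa*, which fat cells also express, and *Ly6c2*, *Itgal* and *Selplg*, which monocytes and lymphocytes share. The rest of the 20 were *Ctsg*, *Mmp25*, *Stfa3*, *Wfdc21*, *Nos2*, *Ptges*, *Retnla*, *Ly6c1*, *Ly6i* and *Ly6d*. The adipocyte covariate itself differs between the groups, and the part of fat or of other leukocytes in these counts was not tested.

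Of 25 mature neutrophil genes in the table, 3 were higher and 2 lower at an unadjusted p under 0.05 (all genes tested, 3.40% and 2.38%). *Slfn4*, a schlafen gene of activated myeloid cells, was at 104, 114 and 215 normalized counts across the WT tumors against 64.6, 40.4 and 20.8 across the knockouts (log2 fold change -1.82, SE 0.58, adjusted p = 0.720, limma), with no overlap. *Padi4*, the enzyme gene that citrullinates histones in neutrophil extracellular traps, was at 1349, 575 and 2487 against 421, 659 and 541 (log2 fold change -1.23, adjusted p = 0.819, limma). *Clec4e*, the Mincle receptor gene, lay below all WT tumors in every knockout tumor, with 67.6, 93.0 and 64.5 against 18.8, 51.3 and 36.1.

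The 3 higher genes of that list were *G0s2*, *Wfdc21* and *Stfa3*. *G0s2*, a lipolysis inhibitor gene that fat cells also express, was at 299, 360 and 247 against 455, 1364 and 560 (log2 fold change 1.23, adjusted p = 0.751, limma). *Wfdc21* was at 64.5, 193.0 and 62.3 against 134.3, 859 and 279. *Stfa3*, a cysteine protease inhibitor gene, was listed at 0 in each WT tumor, and the knockouts gave 7.45, 1.95 and 17.6. The genes of this list with the largest counts, *S100a11*, *S100a6* and *Fcgr3*, had log2 fold changes of 0.07, -0.52 and 0.11.

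Several relatives of the 9 genes had higher means in knockout tumors where the gene itself did not. In the resistin family 2 of 3 genes tested were higher at an unadjusted p under 0.05 (3.40% of all genes tested): *Retn* was at 185, 807 and 340 across the WT tumors against 601, 3939 and 2070 across the knockouts (log2 fold change 2.19, SE 0.72, adjusted p = 0.736, limma), and *Retnla* was at 102, 49.6 and 107 against 162, 753 and 401 with no overlap (log2 fold change 2.15, adjusted p = 0.649, limma), while *Retnlg* had -1.39. *Retn* is an adipokine gene in mice, and all 8 white adipocyte genes had a log2 fold change above 0 (median 1.80), with *Lep* past the limits. Of 8 lipocalin genes 2 were higher and 1 lower at that p, where all genes tested gave 3.40% and 2.38%: *Orm1* (log2 fold change 2.68) and *Rbp4* (1.98), both acute-phase or fat-derived carrier genes, and, as the lower one, *Ptgds*, the prostaglandin D synthase gene (-0.56). The part of fat in these single values was not tested.

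In the Ly6 cluster, 4 of 14 genes in the table were higher at an unadjusted p under 0.05 (3.40% of all genes tested) and 0 were lower (2.38%). *Ly6c2*, which encodes a Ly6C antigen of inflammatory monocytes and other leukocytes, was at 400, 250 and 238 normalized counts across the WT tumors against 785, 2223 and 1563 across the knockouts, with no overlap (log2 fold change 2.28, SE 0.40, adjusted p = 0.212, limma). *Ly6c1* had a log2 fold change of 0.94, *Ly6i* one of 1.85 and *Ly6d*, a gene of early B cells and epithelium, one of 1.75. *Ly6e* and *Ly6a*, which had the largest counts of the cluster, had 0.23 and 0.07.

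Secondary and tertiary granule genes gave 2 of 14 higher and 0 lower at an unadjusted p under 0.05, with 3.40% and 2.38% over all genes tested. Beside *Mmp25* this was *Hp*, haptoglobin, an acute-phase gene also made by fat, at 9478, 15853 and 6976 against 11872, 49103 and 21724 (log2 fold change 1.20, adjusted p = 0.859, limma). *Mmp9*, the gelatinase of tertiary granules, was at 474, 183 and 185 against 181, 174 and 151, with every knockout tumor below every WT tumor by a small margin (log2 fold change -0.58, adjusted p = 0.896, limma). *Ltf* had a log2 fold change of -2.21 with an SE of 2.23, and of -0.29 without WT tumor 3.

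Among 22 genes used to describe granulocytic suppressor cells, 2 were higher and 1 lower at an unadjusted p under 0.05, against 3.40% and 2.38% of all genes tested. *Ptges*, prostaglandin E synthase, was at 368, 321 and 265 against 782, 573 and 595 (log2 fold change 1.03, SE 0.26, adjusted p = 0.577, limma), and *Nos2*, inducible nitric oxide synthase, at 129, 98.1 and 46.1 against 593, 163 and 146; in both the groups did not overlap. *Ptgs2*, the cyclooxygenase upstream of *Ptges*, was the lower one (log2 fold change -0.82, adjusted p = 0.819, limma). The genes with the largest counts, *Anxa1*, *Xbp1* and *Stat3*, had -0.41, 0.51 and -0.13.

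The receptors of calprotectin showed 1 gene of 8 higher at an unadjusted p under 0.05 (3.40% of all genes tested) and 0 lower (2.38%): *Cd36*, a fatty acid and scavenger receptor gene, at 1995, 1464 and 672 against 2540, 8782 and 5149 (log2 fold change 1.96, SE 0.51, adjusted p = 0.587, limma). *Tlr4*, the receptor through which calprotectin acts on myeloid cells, was between 826 and 1257 in all tumors with a log2 fold change of 0.03, and *Ager*, the RAGE gene, lay below all WT tumors in every knockout tumor (log2 fold change -0.71, adjusted p = 0.880, limma). *Bsg* and *Myd88* had -0.31 and -0.03.

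The 6 NADPH oxidase genes, which make the superoxide of the respiratory burst, gave 0 genes at an unadjusted p under 0.05. *Cybb*, the catalytic subunit gene, had a fold change of 0.66 on the log2 scale (adjusted p = 0.891, limma), *Cyba* -0.19 and *Rac2* -0.10. Of 10 transcription factor genes of granulopoiesis, 1 was higher at that limit, beside 3.40% of all genes tested: *Cebpa*, which starts the granulocyte programme and is also a fat cell factor, at 1786, 1283 and 931 against 2015, 3709 and 3018 (log2 fold change 1.13, SE 0.31, adjusted p = 0.644, limma). *Cebpe*, needed for secondary granules, was between 10.4 and 29.1 in all tumors (log2 fold change 0.04), and *Cebpd*, *Runx1* and *Cebpb* had -0.07, 0.41 and -0.06. Of 14 S100 genes in the table, both calprotectin genes included, and of 3 haem peroxidase genes, 0 reached that limit; *S100a10* had a log2 fold change of -0.24, *Pxdn* 0.18 and *Lpo* 0.22.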

How the data were processed

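Total RNA of 6 primary tumors was sequenced as poly(A) libraries. The authors quantified transcripts with kallisto (version 0.46.2 and build GRCm38 in the submitters' processing notes), summed them to genes, removed low genes and scaled with the size factors of DESeq2. The table the authors deposited is labelled TPM but holds normalized counts, here a signal and not TPM, whose columns sum to between 32316613 and 37717165. No count model was fitted; whole reads were looked for in the 4097 genes with 1 transcript alone (93.9% to 99.1% of low values within 0.1 read).

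The 19667 genes reaching 1 normalized count in 3 or more tumors were tested on log2(value + 1) with limma 3.58.1 in R 4.3.3, with a variance trend, no covariate and Benjamini-Hochberg adjustment over all of them; fold changes are on that scale, where the pseudocount pulls low values together. Tests were two-sided, and p-values measure the spread between these tumors. On simulated data for this comparison, 168 of 200 changed genes and 6 others were called. The changed genes were given a log2 fold change of 4 and were drawn from genes above a low mean level. These counts therefore do not give the power for smaller changes or for genes at low levels. The power for the 9 genes, whose median SE was 0.88, was not read from this. The 9 genes and all gene lists were chosen with earlier results of these data known. Named are the 9 genes, the 3 most abundant genes and those with an unadjusted p under 0.05 of each neutrophil list, the most abundant gene and those near 0 of the lists of other cells, and the 5 genes most like *S100a8* and the mean of 5 genes; others were named after their values were seen. Alternatives changed the pseudocount, filter, scaling, block, weights, variance trend, covariates and tumors left out; correlations over lists, shares of all genes under each alternative, and correlations, *Ltf* and the level of *Lcn2* without single tumors were added after seeing the data. Positions are from GENCODE M21. Flow cytometry data were not analysed here. The single-gene result of 1 gene of the lists is not reported here.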

Additional observations from a re-analysis of the deposited data

How the results depend on the processing

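Across the alternatives run, 19 for the 9 genes and 18 for the wider lists, 0 genes passed the limits; *Ly6g* and *Mpo* did not pass a filter of 10. *Csf3r* and *Retnlg* kept the direction of their log2 fold change throughout, at 0.56 to 1.28 and at -5.43 to -0.58. Leaving out 1 tumor at a time gave -1.16 to 0.53 for *S100a8*, -2.07 to 0.0257 for *S100a9*, -1.54 to 1.11 for *Ly6g*, -1.67 to 0.65 for *Lcn2*, -0.32 to 0.21 for *Itgam* and -0.23 to 0.96 for *Mpo*. For *Cxcr2* it gave -0.58 (without WT tumor 1) to -0.19 (without knockout tumor 3). With the mean of general leukocyte genes as a covariate *Cxcr2* was at 0.0233, *Ly6g* at 1.91 and *Lcn2* at 0.97; with that of white adipocyte genes they were at 0.0453, 1.92 and 1.66; with array weights *Ly6g* was at 0.15. The cause was not tested.

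At an unadjusted p under 0.05, 0 of the 9 genes were called with a pseudocount of 10, a filter of 10, quantile normalization, no variance trend or the leukocyte covariate. With the adipocyte covariate there were 3, *S100a8* (-4.04), *S100a9* (-5.53) and *Retnlg* (-5.43), with an adjusted p of 0.433 (limma); that covariate itself differs between the groups, and 5.06% of all genes were higher and 5.84% lower under it. Leaving out 1 tumor gave 0 to 3, the 3 being *S100a9*, *Retnlg* and *Csf3r* without knockout tumor 2 (2.77% of all genes higher, 2.13% lower). Genes without overlap were 2 under quantile normalization (5.15% of all genes above, 5.90% below) and 1 to 4 without 1 tumor; the 4 came without knockout tumor 2, where 10.5% of all genes lay above and 11.5% below. In the wider lists, higher genes were 9 with the leukocyte and 2 with the adipocyte covariate, and lower genes were 25 with the adipocyte covariate. Without 1 tumor, 12 to 26 were higher and 2 to 12 lower, where all genes tested gave 2.68% to 4.46% and 1.17% to 3.58%. Deviations of same-numbered tumors correlated at -0.20, 0.28 and -0.31, so the numbers were not taken to pair the mice; with the replicate block, 0 of the 9 genes and 5 of all genes passed the limits, against 20 without it, and *Csf3r* had an unadjusted p of 0.0408 (limma). With 1 read worth about 1 normalized count, *Ly6g*, *Mpo* and *Retnlg* rest on a few reads in some tumors; the part of depth in their spread was not tested.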

Other observations

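Other granulocytes and their marrow precursors were described beside the neutrophil genes. Of 11 eosinophil, mast cell and basophil genes in the table, all had a log2 fold change above 0 (median 1.08), 5 were higher at an unadjusted p under 0.05 (3.40% of all genes tested) and 0 passed the limits. *Prg2*, the major basic protein gene of eosinophils and a gene of plasma cells too, was at 12.3, 38.4 and 38.6 normalized counts across the WT tumors against 183, 305 and 273 across the knockouts (log2 fold change 3.18, adjusted p = 0.216, limma). *Cpa3*, the mast cell carboxypeptidase gene, was at 158, 235 and 209 against 309, 975 and 488, also with no overlap, while *Mcpt8*, the basophil protease gene, was at 0, 2.13 and 0 against 1.93, 7.04 and 3.03. Of 8 B and plasma cell genes, 4 passed the limits as higher in knockout tumors, beside 0.102% of all genes tested. Bone marrow progenitor genes gave 1 of 8 higher (*Ctsg*) and platelet genes 0 of 6 at an unadjusted p under 0.05, where all genes tested gave 3.40% higher and 2.38% lower; 0 genes of either list were lower.

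The ratio of *S100a9* to *S100a8*, the 2 subunits of calprotectin, was 1.45, 1.48 and 1.33 across the WT tumors against 0.69, 1.24 and 0.80 across the knockouts, lower in every knockout tumor (exact permutation, two-sided, p = 0.1, which is the smallest possible). The ratio of *Itgam* to *Itgb2* was 0.81, 0.74 and 1.99 against 0.69, 0.71 and 0.42, and that of *Itgam* to *Csf1r* was 0.28, 0.30 and 0.53 against 0.25, 0.23 and 0.16, both without overlap at the same exact p. These were 3 of 10 ratios computed after the levels had been seen, with an adjusted exact p of 0.333 each, and a ratio shows unequal change only.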
